A study of Mus musculus with 17 samples.

Results

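The genes described here are a fixed panel of 48 genes that work in mitosis, from the kinase switch that starts it to the proteins that divide the cell, followed across 9 sorted blood cell populations of the mouse. The panel was chosen by gene name and role, with no measured value in the rule but with earlier results of these data known. Of the 48 genes, 47 were measured by a probe set of their own, among 22180 genes tested. Sgol1 appears under its present symbol, Sgo1, and Ncapg, a condensin subunit, was not analysed here because its only probe set is shared with another gene symbol.

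RNA from each population was amplified and hybridised to an Affymetrix whole-transcript array for the mouse, 17 arrays in all. HSC (haematopoietic stem cells), LMPP (lymphoid-primed multipotent progenitors), flt3+ CMP and flt3- CMP (common myeloid progenitors with and without the receptor flt3), CLP (common lymphoid progenitors), EILP (early innate lymphoid progenitors) and NK (natural killer cells) came from bone marrow. ETP (early T cell progenitors) and DN3 (a later CD4-CD8- stage of T cell development) came from thymus. EILP had 1 array, and each of the other 8 populations had 2. Per the study's design text, donor marrow carried a GFP reporter for TCF-1, a transcription factor of early T cell and innate lymphoid development, and went into B6 CD45.1 recipients given a lethal dose of 900 rads. Sorting took place after 12 weeks of reconstitution, with cells pooled over several chimeras, so the populations it lists shared the reporter, the irradiated host and the transplant. It does not list NK, and no label gives age, sex or separate animals for the replicates. P-values therefore measure only the spread between these samples, which may be technical.

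Mitosis begins when cyclin-dependent kinase 1, bound to a cyclin and freed from inhibition by a Cdc25 phosphatase, phosphorylates many proteins. Chromosomes condense, kinetochores on the centromeres attach to spindle microtubules, and the spindle checkpoint holds the anaphase-promoting complex in check until every chromosome is attached. Most of the genes involved are transcribed in G2 and M phase, through CCAAT boxes bound by NF-Y and through the cell cycle homology region bound by DREAM and by the MuvB complex with Foxm1 or B-Myb. In blood formation, cycling rates differ widely between stem cells, committed progenitors and developing thymocytes. In these bulk samples, fewer dividing cells and less RNA per dividing cell cannot be told apart.

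The promoters of the 6 genes with the largest F statistic over the populations that had an entry are shown because these short elements are the best known feature that mitotic genes share. The sequences are from RefSeq on GRCm38.p6, 5′ to 3′ in the sense of the gene, from 250 bases before to 50 bases after the annotated start. Capitals mark CCAAT, which reads ATTGG where it lies on the opposite strand, and the core of the cell cycle homology region. That core is TTTGAA, which reads TTCAAA on the opposite strand, or its variant TTTAAA.
Aurka, chr2:172370521-172370820, minus strand: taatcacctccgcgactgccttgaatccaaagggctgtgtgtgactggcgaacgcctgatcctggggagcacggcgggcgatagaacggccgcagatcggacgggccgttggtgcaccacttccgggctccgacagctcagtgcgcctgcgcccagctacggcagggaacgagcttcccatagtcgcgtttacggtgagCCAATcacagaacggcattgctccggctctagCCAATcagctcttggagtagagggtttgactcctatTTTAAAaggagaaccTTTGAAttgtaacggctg
Nusap1, chr2:119618048-119618347, plus strand: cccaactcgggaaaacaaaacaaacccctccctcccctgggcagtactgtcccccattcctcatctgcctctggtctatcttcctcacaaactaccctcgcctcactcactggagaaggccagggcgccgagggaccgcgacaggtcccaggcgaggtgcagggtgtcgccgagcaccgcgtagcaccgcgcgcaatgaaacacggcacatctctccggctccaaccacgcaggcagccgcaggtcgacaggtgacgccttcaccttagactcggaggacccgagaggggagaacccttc
Hmmr, chr11:40733388-40733687, minus strand: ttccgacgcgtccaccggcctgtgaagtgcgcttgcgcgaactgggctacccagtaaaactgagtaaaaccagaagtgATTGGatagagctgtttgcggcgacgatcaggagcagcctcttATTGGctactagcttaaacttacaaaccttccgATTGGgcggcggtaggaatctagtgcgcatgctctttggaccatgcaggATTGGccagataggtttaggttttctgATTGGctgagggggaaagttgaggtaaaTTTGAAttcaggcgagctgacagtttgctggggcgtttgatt
Prc1, chr7:80294201-80294500, plus strand, the first of 2 entries: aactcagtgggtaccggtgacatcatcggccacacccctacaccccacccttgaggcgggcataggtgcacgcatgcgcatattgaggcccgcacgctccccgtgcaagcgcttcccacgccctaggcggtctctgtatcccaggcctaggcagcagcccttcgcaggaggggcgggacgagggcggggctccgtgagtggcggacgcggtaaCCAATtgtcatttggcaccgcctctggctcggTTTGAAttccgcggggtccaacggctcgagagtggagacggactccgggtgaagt
Anln, chr9:22389157-22389456, minus strand: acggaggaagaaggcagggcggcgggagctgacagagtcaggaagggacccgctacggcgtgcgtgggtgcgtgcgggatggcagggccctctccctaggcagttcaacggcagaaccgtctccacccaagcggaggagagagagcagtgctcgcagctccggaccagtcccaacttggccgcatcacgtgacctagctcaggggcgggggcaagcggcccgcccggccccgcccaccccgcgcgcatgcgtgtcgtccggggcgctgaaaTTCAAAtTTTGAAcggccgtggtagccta
Kif4, chrX:100625815-100626114, plus strand: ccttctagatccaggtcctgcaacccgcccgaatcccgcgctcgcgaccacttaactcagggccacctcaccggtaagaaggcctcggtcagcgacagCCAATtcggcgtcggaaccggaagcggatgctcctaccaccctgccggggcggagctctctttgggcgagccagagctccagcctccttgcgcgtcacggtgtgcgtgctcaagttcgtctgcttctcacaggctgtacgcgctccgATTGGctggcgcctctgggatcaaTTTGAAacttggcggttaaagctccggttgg

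The promoter of Hmmr held 5 CCAAT boxes, all on the opposite strand, and a TTTGAA starting 8 bases after the annotated start. Aurka had CCAAT at -51 and -19 relative to its start, with TTTAAA at 17 and TTTGAA at 32. Prc1 had CCAAT at -37 and TTTGAA at -5, Kif4 had CCAAT at -152 and -5 and TTTGAA at 19, and Anln had TTTGAA on both strands, at 21 and 28, with no CCAAT. The window of Nusap1 held none of these letters.

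Entries were found for 39 of the 47 genes, with 42 promoters in all. CCAAT on either strand was present in 32 of the 42, or 76.2%, against 37.7% of 20611 promoters of genes tested and 37.4% of all 32851 promoters of the same length. More than 1 CCAAT was present in 21 of 42, against 12.3% of promoters of genes tested. TTTGAA was present in 31 of 42, or 73.8%, against 15.4% of promoters of genes tested and 17.9% of all. TTTAAA was present in 8 of 42, or 19%, against 11.7% and 13.2%. Within 50 bases of the start, TTTGAA was present in 66.7% of the members' promoters and in 3.97% of those of genes tested. Over the whole window, CCAAT together with either form of the homology region was present in 66.7% of the members' promoters and in 9.63% of those of genes tested. By contrast, forms of the E2F element (searched as TTTCCCGC, as TTTGGCGC, as TTTGCCGC and as TTTCGCGC) were present in 2 of 42 promoters, or 4.76%, against 2.85%. Both strands were searched, no motif contains another, and a match describes the sequence only.

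The mitosis genes were well above the centre of the array scale in every population and lowest in ETP. The median log2 value of the 47 genes was 7.46 and 7.55 in the HSC arrays, 7.79 and 8.04 in LMPP, 8.36 and 8.57 in flt3+ CMP, and 8.18 and 8.19 in flt3- CMP. It was 8.35 and 8.56 in CLP, 7.93 in EILP, 7.71 and 7.87 in NK, 6.47 and 6.68 in ETP, and 8.21 and 8.19 in DN3. The 2 ETP arrays thus lay below all others, the HSC arrays came next, and the arrays of flt3+ CMP and CLP were the highest. The median over all values of the genes tested in all arrays was 4.54, and 44 of the 47 genes were above it in every array. The exceptions were single ETP values of Cdc25c (3.87), Nek2 (4.21) and Kif18b (4.52).

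**Figure D1:**
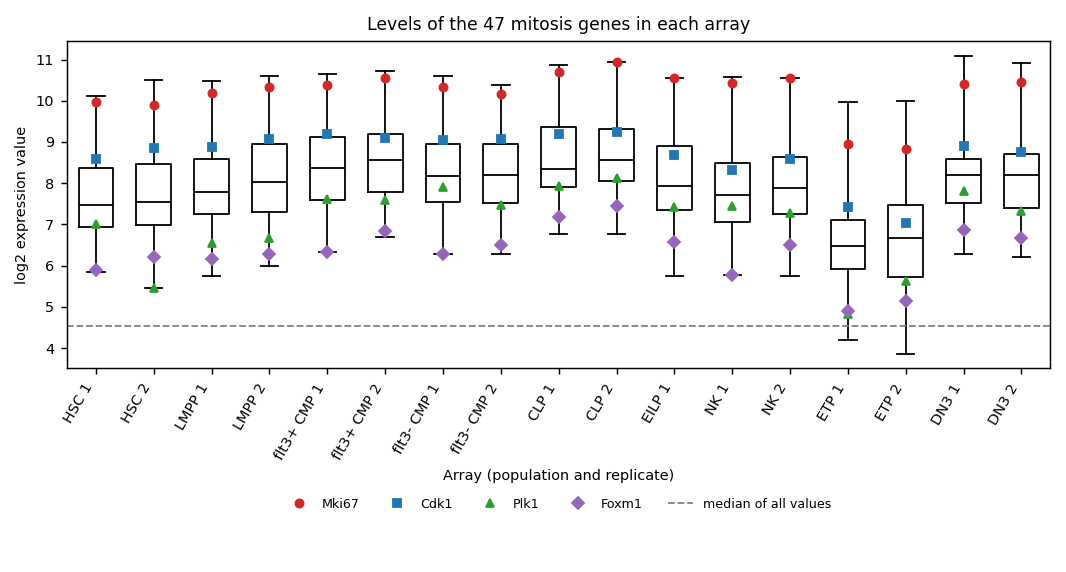
Log2 expression value of the 47 mitosis genes (y axis) in each of the 17 arrays (x axis). Boxes span the quartiles with the median as a line, whiskers reach the lowest and highest gene, coloured points follow Mki67, Cdk1, Plk1 and Foxm1 from array to array, and the dashed line is the median of all values, 4.54. The boxes of the 2 ETP arrays, with medians of 6.47 and 6.68, lie below those of all other arrays.

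All 47 genes differed among the 9 populations in limma's moderated F test at an adjusted p under 0.05, where 22.7% of all genes tested did. The F statistic ran from 5.11 for Cenpi to 46.5 for Aurka, followed by 43.4 for Nusap1 and 42.0 for Hmmr. The population with the lowest mean was ETP for 46 of the 47 genes, against 10.8% of all genes, and HSC for the remaining gene, Kif23. The highest mean was in CLP for 34 genes, against 5.54% of all genes, in flt3+ CMP for 9, in flt3- CMP for 3 (Bub3, Cenpa and Cdc20) and in DN3 for Smc4. Both ETP arrays were below each of the 15 other arrays for 41 genes, against 2.70% of all genes. These counts of ETP and CLP were chosen after the values were seen. For Plk1, Aurkb, Cenpi, Spc24, Kif20a and Kif23, at least 1 array of HSC or NK reached as low as the higher ETP array.

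**Figure D2:**
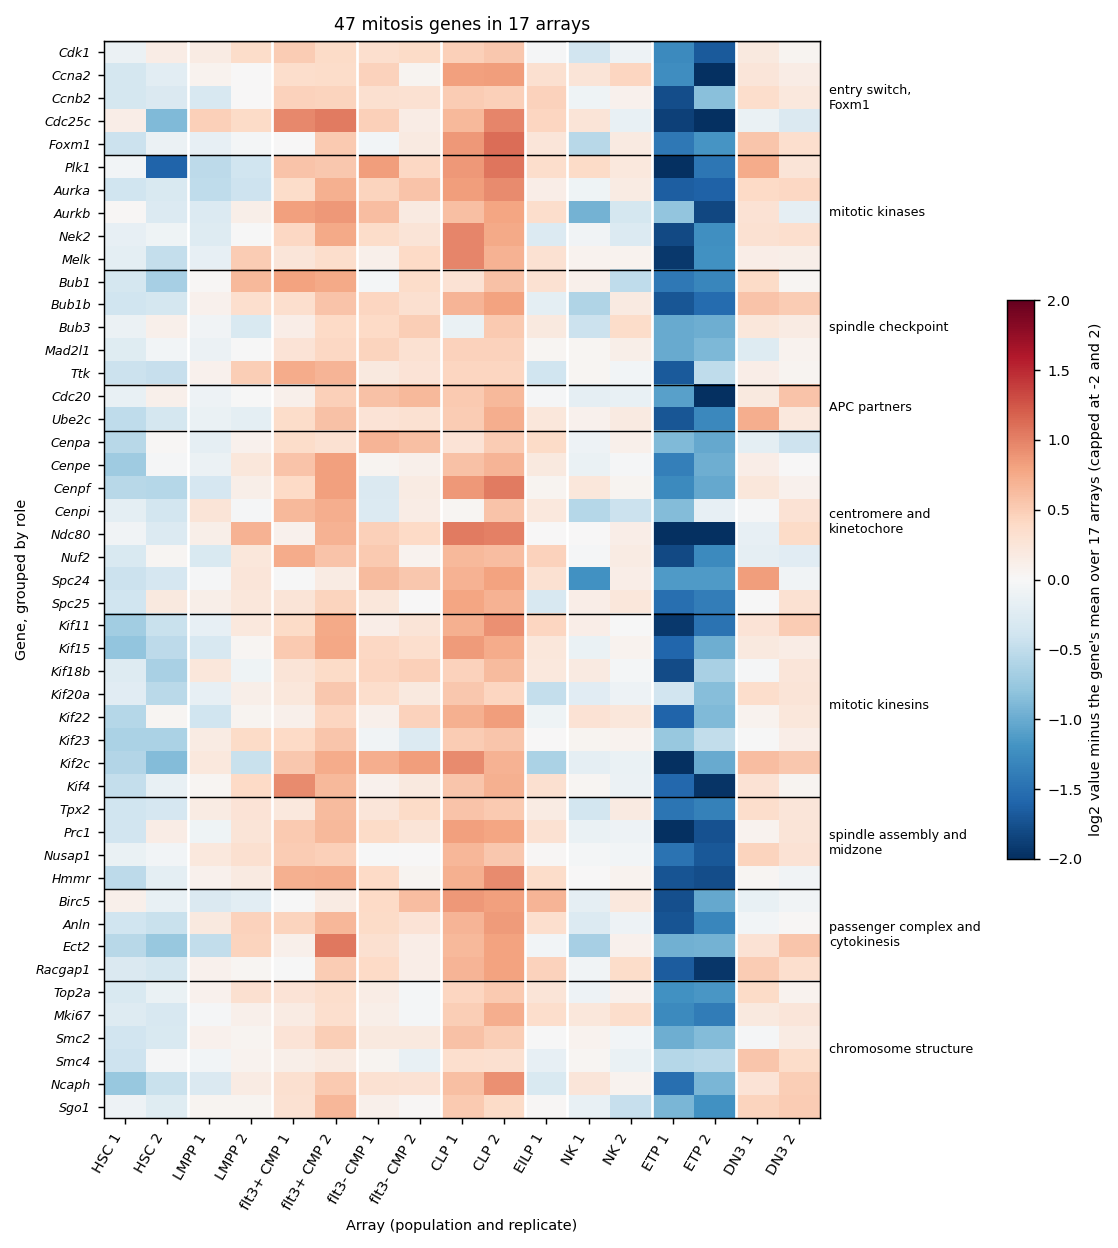
Log2 value of each of the 47 genes (rows, grouped by role) in each of the 17 arrays (columns), as the difference from that gene's mean over the arrays, with colours capped at -2 and 2. The ETP columns are blue for nearly all rows and the CLP columns are red for nearly all rows, with Smc4, Kif20a, Kif23 and Cenpi the palest rows.

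Aurka, with the largest F, read 6.64 and 6.74 in HSC, 6.54 and 6.63 in LMPP, 7.40 and 7.75 in flt3+ CMP, 7.49 and 7.62 in flt3- CMP, 7.87 and 7.99 in CLP, 7.18 in EILP, 6.95 and 7.20 in NK, 5.40 and 5.43 in ETP, and 7.43 and 7.45 in DN3. Its arrays fell into 4 steps: ETP, then HSC with LMPP, then EILP with NK, then the rest, with CLP at the top. Mki67 read 9.96 and 9.90 in HSC, 10.20 and 10.32 in LMPP, 10.38 and 10.55 in flt3+ CMP, 10.33 and 10.17 in flt3- CMP, 10.70 and 10.93 in CLP, 10.56 in EILP, 10.44 and 10.56 in NK, 8.95 and 8.82 in ETP, and 10.42 and 10.46 in DN3. ETP and then HSC were the lowest and CLP the highest for Mki67, while the arrays of the other 6 populations lay between 10.17 and 10.56.

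Ndc80 had the widest range of population means. It read 8.33 and 8.13 in HSC, 8.51 and 9.09 in LMPP, 8.49 and 9.10 in flt3+ CMP, 8.88 and 8.80 in flt3- CMP, 9.44 and 9.41 in CLP, 8.41 in EILP, 8.41 and 8.54 in NK, 6.37 and 5.85 in ETP, and 8.23 and 8.78 in DN3. Outside ETP and CLP, all its arrays lay between 8.13 and 9.10. Hmmr read 6.95 and 7.27 in HSC, 7.55 and 7.65 in LMPP, 8.18 and 8.19 in flt3+ CMP, 7.87 and 7.52 in flt3- CMP, 8.17 and 8.41 in CLP, 7.84 in EILP, 7.48 and 7.54 in NK, 5.74 and 5.70 in ETP, and 7.50 and 7.40 in DN3. For this spindle gene the flt3+ CMP arrays overlapped those of CLP, and NK, DN3 and LMPP lay together between 7.40 and 7.65.

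Smc4, the gene with the narrowest range, read 10.12 and 10.51 in HSC, 10.48 and 10.61 in LMPP, 10.65 and 10.71 in flt3+ CMP, 10.59 and 10.38 in flt3- CMP, 10.86 and 10.85 in CLP, 10.37 in EILP, 10.57 and 10.41 in NK, 9.96 and 9.998 in ETP, and 11.09 and 10.91 in DN3. Here DN3 and not CLP was on top, and ETP lay just under the lowest HSC array. Kif20a, another narrow gene, read 6.77 and 6.46 in HSC, 6.83 and 7.11 in LMPP, 7.22 and 7.54 in flt3+ CMP, 7.34 and 7.19 in flt3- CMP, 7.53 and 7.42 in CLP, 6.52 in EILP, 6.76 and 6.89 in NK, 6.61 and 6.14 in ETP, and 7.35 and 7.25 in DN3. The arrays of HSC, EILP, NK and ETP all lay below those of both CMP populations, CLP and DN3, and the LMPP arrays overlapped those of NK.

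The spread between populations was wide for these genes. The highest minus the lowest population mean had a median of 2.12 log2 units over the 47 genes, against 0.63 over all genes tested, and ran from 1.02 for Smc4 to 3.32 for Ndc80. With ETP left out, the median was 1.10, from 0.61 for Mad2l1 to 1.79 for Plk1. The median gap between the arrays of a population was 0.39 in ETP and between 0.13 and 0.25 in the other 7 populations with 2 arrays. The largest gaps were in Plk1 in HSC (1.55), Spc24 in NK (1.35) and Ccna2 in ETP (1.32).

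Facts of the whole series that touch these results are few. Array medians over the 22180 genes tested ran from 4.45 to 4.62. Genes typical of neutrophils were high in every marrow array: S100a8 lay between 11.95 and 12.50 in the 13 marrow arrays and between 3.0 and 6.67 in the 4 thymus arrays. Labels and defining markers agreed for HSC (9 of 9 stem cell genes above the median of all values), for NK (10 of 10 NK cell genes above it) and for DN3 (T lineage genes averaging 8.22 and 8.23, with Cd4 and Cd8a below the median). Being above this median does not single out a label. In HSC, 10 of 10 neutrophil genes and 7 of 7 red cell genes were above it too. In ETP the T lineage genes averaged 4.83 to 5.01, with Cd3e, Cd4 and Cd8a below the median of all values. Y-linked genes averaged 7.03 to 7.66 in the 5 arrays of CLP, EILP and DN3 and 3.03 to 3.38 in the other 12, so 5 of the 11 comparisons set the 2 sides of that split against each other.

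The question of the thymic comparisons is how populations change as marrow progenitors enter and pass through the thymus. Mitosis genes were lower in ETP than in LMPP across every role. Of the 47 mitosis genes, 40 were lower in ETP and 0 were higher (limma, adjusted p under 0.05), where 2.40% of all genes were lower and 1.02% higher. All 47 were below 0, with a median of -1.37, a fold of 2.59, against 0.04 over all genes. The ETP and LMPP arrays did not overlap for any of the 47, as was so for 41.2% of all genes. All 47 also had an unadjusted p under 0.05, against 14.4% of all genes. With only the ETP and LMPP arrays in the fit, 20 of 47 were lower.

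The genes of the entry switch were all lower in ETP, 5 of 5. Cdk1, the kinase that drives entry into mitosis, read 8.87 and 9.07 in LMPP and 7.43 and 7.03 in ETP. Its difference was -1.74 ± 0.17 (standard error of the fit, 2 arrays against 2, limma adjusted p = 3.6e-05). Ccna2, cyclin A2, read 9.32 and 9.27 in LMPP and 8.01 and 6.69 in ETP, a difference of -1.94 ± 0.30 (limma adjusted p = 0.0016). The ETP arrays of Ccna2 lay far apart, yet both were below every other array. Cdc25c, the phosphatase that activates Cdk1, read 6.97 and 6.88 in LMPP and 4.62 and 3.87 in ETP, a difference of -2.68 ± 0.30 (limma adjusted p = 0.00012). Ccnb2, cyclin B2, was lower by a difference of -1.15. Foxm1, the transcription factor of the late cell cycle, read 6.17 and 6.29 in LMPP and 4.89 and 5.14 in ETP, a difference of -1.21 ± 0.24 (limma adjusted p = 0.011).

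Among the mitotic kinases, 4 of 5 were lower in ETP. Aurka, Aurora A of the spindle poles, read 6.54 and 6.63 in LMPP and 5.40 and 5.43 in ETP, a difference of -1.17. Aurkb, the kinase of the chromosomal passenger complex, Nek2, a centrosomal kinase, and Melk had differences of -1.22, -1.38 and -1.74. Plk1, the polo-like kinase that acts from entry to cytokinesis, read 6.54 and 6.67 in LMPP and 4.82 and 5.62 in ETP. The arrays of Plk1 did not overlap, but its difference of -1.39 ± 0.39 did not pass (limma adjusted p = 0.075).

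In the spindle checkpoint, which delays anaphase until chromosomes are attached, 4 of 5 genes were lower. Bub1b, which encodes BubR1, read 7.79 and 8.04 in LMPP and 5.99 and 6.16 in ETP, a difference of -1.84. Bub1 (-1.71), the kinase Ttk (-1.39) and Mad2l1 (-0.89) were also lower, and Bub3, at -0.80, did not pass (limma adjusted p = 0.12). The 2 partners of the anaphase-promoting complex were both lower: Cdc20, its activator, by a difference of -1.56 and Ube2c, its ubiquitin-conjugating enzyme, by one of -1.33.

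Of the centromere and kinetochore genes, 6 of 8 were lower. Ndc80, the microtubule-binding subunit of the kinetochore, read 8.51 and 9.09 in LMPP and 6.37 and 5.85 in ETP. Its difference of -2.69 ± 0.26 (limma adjusted p = 2.5e-05) was the largest of the 47 in this comparison. The other 3 subunits of the same complex were at -1.5 for Nuf2, -1.62 for Spc25 and -1.24 for Spc24, of which Spc24 did not pass (limma adjusted p = 0.076). Cenpa, the histone H3 variant of centromeres, was lower by a difference of -0.91, Cenpe, a kinetochore motor, by one of -1.22 and Cenpf by one of -1.05. Cenpi, of the inner kinetochore, read 7.30 and 7.02 in LMPP and 6.18 and 6.88 in ETP, and its difference of -0.63 did not pass.

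Mitotic kinesins were lower in 7 of 8 cases. Kif4, a chromosome-bound motor that also acts at the spindle midzone, read 7.45 and 7.80 in LMPP and 5.83 and 5.45 in ETP, a difference of -1.98 ± 0.19 (limma adjusted p = 2.9e-05). Kif11, which pushes spindle poles apart, was lower by a difference of -1.72, Kif2c, a microtubule depolymerase, by -1.39 and Kif18b by -1.29. Kif15 (-1.15), Kif22 (-1.07) and Kif23 (-0.90) were also lower. Kif20a, a motor of cytokinesis, read 6.83 and 7.11 in LMPP and 6.61 and 6.14 in ETP, and its difference of -0.59 did not pass (limma adjusted p = 0.14).

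All 4 genes of spindle assembly and the midzone were lower in ETP. Prc1, which bundles midzone microtubules, read 8.09 and 8.43 in LMPP and 6.12 and 6.44 in ETP, a difference of -1.99 ± 0.19 (limma adjusted p = 2.6e-05). Hmmr, Nusap1 and Tpx2, which bind and organise spindle microtubules, were lower by differences of -1.88, -1.85 and -1.63. Of the passenger complex and cytokinesis genes, 3 of 4 were lower. These were Racgap1 (-1.86), part of centralspindlin, Anln (-1.84), the scaffold of the contractile ring, and Birc5 (-1.13), which encodes survivin. Ect2, the exchange factor that activates RhoA at the cell equator, was at -0.92 and did not pass (limma adjusted p = 0.19).

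Among the 6 chromosome structure genes, 5 were lower. Mki67, which encodes the proliferation antigen Ki-67, read 10.20 and 10.32 in LMPP and 8.95 and 8.82 in ETP, a difference of -1.37 ± 0.15 (limma adjusted p = 6.6e-05). Top2a, the topoisomerase that disentangles sister chromatids, read 10.24 and 10.48 in LMPP and 8.94 and 8.99 in ETP, a difference of -1.39 ± 0.16 (limma adjusted p = 0.00014). The condensin subunits Ncaph (-1.15) and Smc2 (-1.0) and the cohesin protector Sgo1 (-1.12) were lower too. Smc4, the partner of Smc2 in condensin, read 10.48 and 10.61 in LMPP and 9.96 and 9.998 in ETP, and its difference of -0.56 did not pass (limma adjusted p = 0.083).

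Both populations of this comparison were low in Y-linked genes. Of 10 neutrophil genes, 9 were lower in ETP, and their array means were 9.93 to 10.11 in LMPP and 5.39 to 5.43 in ETP, with Ltf, Camp, Mmp8 and Retnlg below the median of all values. Of 7 red cell genes 2 were lower and 0 higher, and of 10 macrophage genes 2 and 0. Of 9 stem cell genes 3 were lower and 1 higher, and of 9 T lineage genes 0 and 2. Over all genes, 2.40% were lower and 1.02% higher. The part of these lists in the LMPP and ETP difference was not tested. LMPP came from marrow and ETP from thymus, so tissue and stage cannot be told apart here.

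DN3 against ETP, within the thymus, went the other way. Of the 47 genes, 45 were higher in DN3 and 0 were lower (limma, adjusted p under 0.05), where 5.20% of all genes were higher and 3.53% lower. The median difference was 1.58, a fold of 3.0, against -0.03 over all genes, and the smallest was 0.64. All 47 had an unadjusted p under 0.05, against 20.8% of all genes. The arrays did not overlap for any of the 47, against 45.5% of all genes. This comparison, that of ETP with LMPP and that of EILP with ETP share the ETP arrays.

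In DN3, Ndc80 read 8.23 and 8.78, a difference from ETP of 2.40 ± 0.26 (limma adjusted p = 4e-05). Plk1 read 7.80 and 7.32, a difference of 2.34 ± 0.39 (limma adjusted p = 0.0015). Racgap1 read 7.80 and 7.63 in DN3 and 5.64 and 5.36 in ETP, a difference of 2.22 ± 0.20 (limma adjusted p = 8.2e-06). All the values of these genes in DN3 were above those in ETP by more than a log2 unit. Bub1b read 8.27 and 8.21 in DN3, a difference of 2.17 ± 0.21 (limma adjusted p = 1.7e-05), and Ccna2 read 9.50 and 9.41, a difference of 2.10 ± 0.30 (limma adjusted p = 0.00047). Every gene of 8 of the 9 roles was higher, and the kinetochore genes were higher in 6 of 8 cases. Cenpa and Cenpi were the exceptions, at 0.64 (limma adjusted p = 0.055) and 0.65 (limma adjusted p = 0.13).

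Cenpa read 6.34 and 6.20 in ETP and 7.02 and 6.81 in DN3, while flt3- CMP had the highest readings, 7.91 and 7.83. Kif23, with the smallest difference of those that passed, read 7.76 and 8.03 in ETP and 8.51 and 8.66 in DN3, a difference of 0.69. Smc4 read 11.09 and 10.91 in DN3, above every other array, and its difference from ETP was 1.02. DN3 and ETP lie on opposite sides of the Y-linked split, so that split and the stage cannot be told apart here. Of 9 T lineage genes, 6 were higher in DN3, and 2 of 10 neutrophil genes were lower, averaging 4.33 to 4.60 in DN3 and 5.39 to 5.43 in ETP. Their part in the DN3 and ETP difference was not tested.

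**Figure D3:**
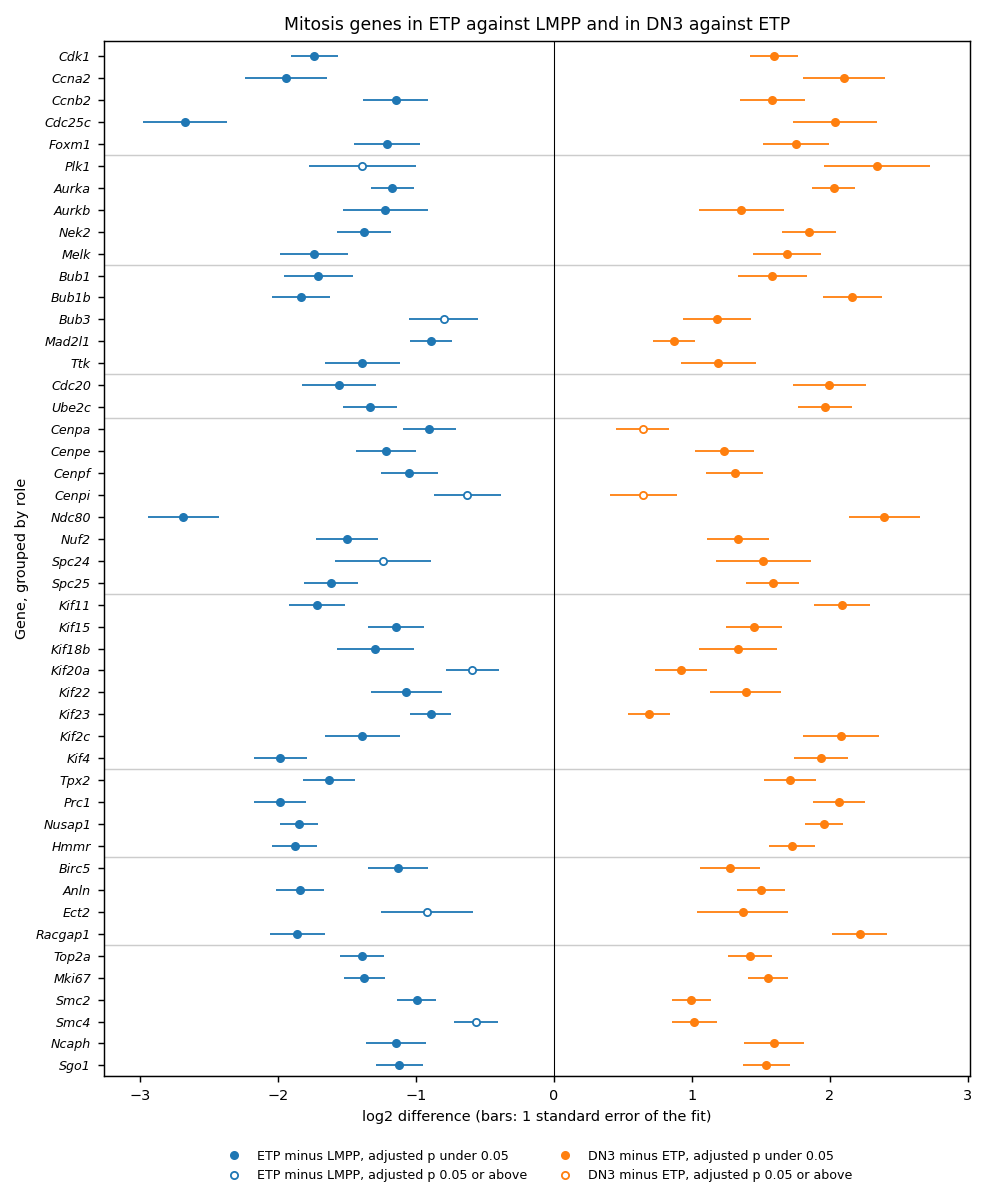
Log2 difference (x axis) of each of the 47 genes (y axis, grouped by role) for ETP minus LMPP in blue and DN3 minus ETP in orange. Bars are 1 standard error of the fit and open points did not pass an adjusted p under 0.05. All 47 blue points lie left of 0 and all 47 orange points lie right of 0, with Ndc80 and Cdc25c farthest left at -2.69 and -2.68. Since both sets use the same ETP arrays, their mirror shape is not independent.

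The single EILP array was also above ETP. Of the 47 genes, 38 were higher in EILP and 0 lower (limma, adjusted p under 0.05), where 4.79% of all genes were higher and 3.40% lower. The median difference was 1.51, a fold of 2.85, against -0.06 over all genes, and 44 genes had an unadjusted p under 0.05, against 19.3% of all genes. The lone EILP array was assumed to vary like the other populations, and with only the EILP and ETP arrays in the fit 24 of 47 were higher. Cdc25c read 6.93 in EILP, a difference from ETP of 2.68 ± 0.37 (limma adjusted p = 0.00037), and Ndc80 read 8.41, a difference of 2.30 ± 0.31 (limma adjusted p = 0.00033). Racgap1 read 7.77, a difference of 2.27 ± 0.25 (limma adjusted p = 4e-05). Ccna2 at 9.58 and Prc1 at 8.49 had differences of 2.22 and 2.21.

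The genes that did not pass were uneven across roles. The entry switch passed in 5 of 5 cases and the mitotic kinases in 5 of 5, while the kinesins passed in 5 of 8 and the chromosome structure genes in 4 of 6. Kif20a read 6.52 in EILP, below the first ETP array at 6.61, and its difference was 0.14 ± 0.23 (limma adjusted p = 0.84). Kif2c (0.87), Kif23 (0.63), Ttk (0.70), Ect2 (0.89), Ncaph (0.90), Smc4 (0.39), Cenpi (0.72) and Spc24 (1.44) did not pass either. Neutrophil genes averaged 11.12 in EILP, and 9 of 10 were higher than in ETP. Red cell genes averaged 8.36 in EILP and 5.57 to 5.79 in ETP, with 6 of 7 higher, and macrophage genes averaged 6.14 against 4.81 to 4.93, with 5 of 10 higher. The part of these lists in the EILP and ETP difference was not tested. Neither the Y-linked split nor the tissue, marrow or thymus, can be told apart from the populations.

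CLP, the marrow population with lymphoid potential, was compared with LMPP to follow the step from multipotent to lymphoid progenitor. Of the 47 genes, 14 were higher in CLP and 0 lower (limma, adjusted p under 0.05), where 3.75% of all genes were higher and 2.20% lower. All 47 differences were above 0, with a median of 0.63 against -0.05 over all genes. The count fell to 3 without the first CLP array, 2 without the second, 2 without the first LMPP array and 7 without the second, and it was 8 without either flt3- CMP array. It was 6 with quantile normalisation and 7 with all probe sets tested.

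Plk1 read 6.54 and 6.67 in LMPP and 7.92 and 8.13 in CLP, a difference of 1.42 ± 0.39 (limma adjusted p = 0.046). Aurka read 7.87 and 7.99 in CLP, a difference of 1.35 ± 0.16 (limma adjusted p = 0.00015), and had the smallest adjusted p of the 47 genes here. Birc5 read 8.16 and 8.24 in LMPP and 9.32 and 9.27 in CLP, a difference of 1.09 ± 0.22 (limma adjusted p = 0.0085). In each of these 3 genes both CLP arrays lay above both LMPP arrays. The arrays of these 2 populations did not overlap for 49.8% of all genes. Foxm1 read 7.19 and 7.44 in CLP, its 2 highest values, a difference of 1.09 ± 0.24 (limma adjusted p = 0.016). Cenpf, a large kinetochore protein, read 7.55 and 8.01 in LMPP and 8.75 and 8.92 in CLP, a difference of 1.05 ± 0.21 (limma adjusted p = 0.0077). The other 9 that passed were Nek2 (1.01), Kif22 (0.95), Kif15 (0.94), Ncaph (0.83), Kif11 (0.79), Ube2c (0.78), Prc1 (0.72), Hmmr (0.69) and Mki67 (0.56).

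By role, the mitotic kinases passed in 3 of 5 cases and the kinesins in 3 of 8, and the spindle checkpoint in 0 of 5, of which 2 had an unadjusted p under 0.05 in limma. Bub1, for example, read 7.85 and 8.46 in LMPP and 8.10 and 8.40 in CLP, with overlapping arrays and a difference of 0.10. Cdk1 read 9.18 and 9.25 in CLP, a difference of 0.25, which did not pass (limma adjusted p = 0.56). Markers of other lineages moved in the same comparison. B lineage genes averaged 6.97 to 7.54 in CLP and 4.61 to 4.84 in LMPP, with 7 of 8 higher, and neutrophil genes averaged 10.90 to 11.03 against 9.93 to 10.11, with 4 of 10 higher. Red cell genes averaged 8.27 to 8.28 against 6.63 to 6.80, with 4 of 7 higher. Their part in the CLP and LMPP difference was not tested, and the Y-linked split cannot be told apart from it.

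EILP, the population the series is named for, was set against CLP, LMPP and NK to place it among its neighbours, and no mitosis gene passed in any of these 3 comparisons. Against CLP, limma called 0 of 47 genes, where 0.325% of all genes were lower and 0.0406% higher. At an unadjusted p under 0.05, 20 of 47 were lower in EILP, against 8.64% of all genes in either direction. The differences were below 0 for 46 of 47 genes, with a median of -0.49 against 0.05 over all genes. Kif2c read 7.64 and 7.39 in CLP and 6.06 in EILP, a difference of -1.46 ± 0.34 (limma adjusted p = 0.13). Nek2 read 7.0 and 6.77 in CLP and 5.75 in EILP, a difference of -1.14 ± 0.24 (limma adjusted p = 0.085). Spc25, of the Ndc80 complex, read 8.35 and 8.26 in CLP and 7.25 in EILP, a difference of -1.06 ± 0.24 (limma adjusted p = 0.12). With 1 EILP array, the count became 1 without either HSC array (Spc25), 2 without either ETP array and 2 without both (Kif2c and Nek2). Neutrophil genes averaged 11.12 in EILP and 10.90 to 11.03 in CLP, with 0 of 10 called. B lineage genes averaged 4.37 in EILP and 6.97 to 7.54 in CLP, with 6 of 8 lower, and their part in the mitosis gene values was not tested. Both populations were high in Y-linked genes.

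Against LMPP, limma called 0 of 47 genes, where 3.90% of all genes differed. At an unadjusted p under 0.05, 3 of 47 differed, against 14.4% of all genes. The median difference was 0.09, from -0.69 for Ttk to 0.93 for Birc5. The median was -0.03 without the first LMPP array, 0.27 without the second and 0.18 with a replicate block, so its sign rests on 1 array. Birc5 read 9.13 in EILP, above LMPP at 8.16 and 8.24, a difference of 0.93 ± 0.27 (limma adjusted p = 0.075), and passed without both ETP arrays. Aurka read 7.18 in EILP, a difference of 0.59 ± 0.19 (limma adjusted p = 0.12). Against NK, limma called 0 of 47 genes, where 3.48% of all genes differed, and 4 of 47 had an unadjusted p under 0.05, against 15.1%. The median difference was 0.23, and 0.08 without the first NK array. Aurkb read 7.91 in EILP and 6.62 and 7.22 in NK, a difference of 0.99 ± 0.38 (limma adjusted p = 0.21). Spc24 read 7.93 in EILP and 6.41 and 7.76 in NK, and it alone passed, at 1.52, when the second NK array was left out. A p above the threshold does not show that these populations have equal levels. LMPP and NK lie on the other side of the Y-linked split from EILP, so that split cannot be told apart from the populations. Of 10 neutrophil genes, 3 were higher in EILP than in LMPP and 2 than in NK, with 0 lower. Of 7 red cell genes, 4 and 0 were higher, and of 10 macrophage genes 5 and 3, with 0 lower. The part of these lists in the EILP differences was not tested.

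Early marrow progenitors differed from each other by smaller steps than ETP did from LMPP, EILP and DN3. LMPP against HSC asked what changes on leaving the stem cell state. Here 1 of 47 genes was higher and 0 lower (limma, adjusted p under 0.05), where 0.275% of all genes were higher and 0.325% lower. Differences were above 0 for 42 genes, with a median of 0.38 against 0.01 over all genes, and 19 genes had an unadjusted p under 0.05, against 7.40% of all genes. The called gene was Kif23, the motor of the centralspindlin complex that works in cytokinesis. It read 7.88 and 7.89 in HSC and 8.68 and 8.90 in LMPP, a difference of 0.91 ± 0.15 (limma adjusted p = 0.014). It did not pass without the first or second HSC array or the second LMPP array, or with only the HSC and LMPP arrays in the fit, and quantile normalisation gave 2 called genes. Anln came next, at 7.58 and 7.55 in HSC and 8.18 and 8.45 in LMPP, with no overlap and a difference of 0.75 (limma adjusted p = 0.085). The HSC and LMPP arrays did not overlap for 36.4% of all genes.

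The flt3- CMP population, set against HSC, had 7 of 47 genes higher and 0 lower (limma, adjusted p under 0.05), where 2.40% of all genes were higher and 1.82% lower. All 47 differences were above 0, with a median of 0.59 against 0.04 over all genes. Kif2c read 6.10 and 5.83 in HSC and 7.41 and 7.53 in flt3- CMP, a difference of 1.51 ± 0.28 (limma adjusted p = 0.0083). Kif15, a spindle motor, read 7.53 and 7.80 in HSC and 8.74 and 8.66 in flt3- CMP, a difference of 1.03 ± 0.20 (limma adjusted p = 0.013). Cenpa read 6.67 and 7.25 in HSC and 7.91 and 7.83 in flt3- CMP, a difference of 0.91 ± 0.19 (limma adjusted p = 0.018). In all 3 the arrays of the populations stayed apart, as they did for 47.5% of all genes. Ncaph read 6.97 and 7.28 in HSC and 8.03 and 8.01 in flt3- CMP, a difference of 0.89 ± 0.22 (limma adjusted p = 0.036). Aurka read 6.64 and 6.74 in HSC and 7.49 and 7.62 in flt3- CMP, a difference of 0.87 ± 0.16 (limma adjusted p = 0.0078). Anln (0.75) and Smc2 (0.54) also passed. Plk1 differed by 1.45 and did not pass, and its HSC arrays read 7.01 and 5.46. The count was 2 without the first HSC array and 3 without the second, 1 and 0 without the first and second flt3- CMP array, and 14 without either ETP array or without both. It was 4 with quantile normalisation, with all probe sets tested and with only the arrays on the low side of the Y-linked split, on which both populations lie. Of 9 stem cell genes, 7 were lower in flt3- CMP, where they averaged 5.28 to 5.33 against 6.77 to 7.10 in HSC. Of 7 red cell genes, 3 were higher, at 8.07 to 8.25 against 7.25 to 7.30. Their part in the difference between HSC and flt3- CMP was not tested.

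Against LMPP, flt3+ CMP had 1 of 47 genes higher and 0 lower (limma, adjusted p under 0.05), where 0.144% of all genes were higher and 0.298% lower. The gene was Aurka, at 7.40 and 7.75 in flt3+ CMP and 6.54 and 6.63 in LMPP, a difference of 0.99 ± 0.16 (limma adjusted p = 0.013). It did not pass without either LMPP array or the second flt3+ CMP array, or with only the arrays of the 2 populations in the fit. Differences were above 0 for 45 of 47 genes, with a median of 0.42 against 0.01 over all genes, and 21 had an unadjusted p under 0.05, against 9.05% of all genes. Between the 2 CMP populations limma called 0 of 47 genes, where 0.0451% of all genes were higher in flt3+ CMP and 0.0631% lower. At an unadjusted p under 0.05, 10 of 47 differed, all higher in flt3+ CMP, against 9.31% of all genes. The median difference was 0.20, and it was 0.31 with quantile normalisation and 0.30 and 0.11 without the first and second flt3+ CMP array. Kif23 had the smallest p, at 8.92 and 9.07 in flt3+ CMP and 8.45 and 8.24 in flt3- CMP, a difference of 0.65 ± 0.15 (limma adjusted p = 0.14). Cenpi had its highest readings in flt3+ CMP, 7.69 and 7.78, against 6.78 and 7.20 in flt3- CMP, a difference of 0.75 ± 0.24 (limma adjusted p = 0.32).

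**Figure D4:**
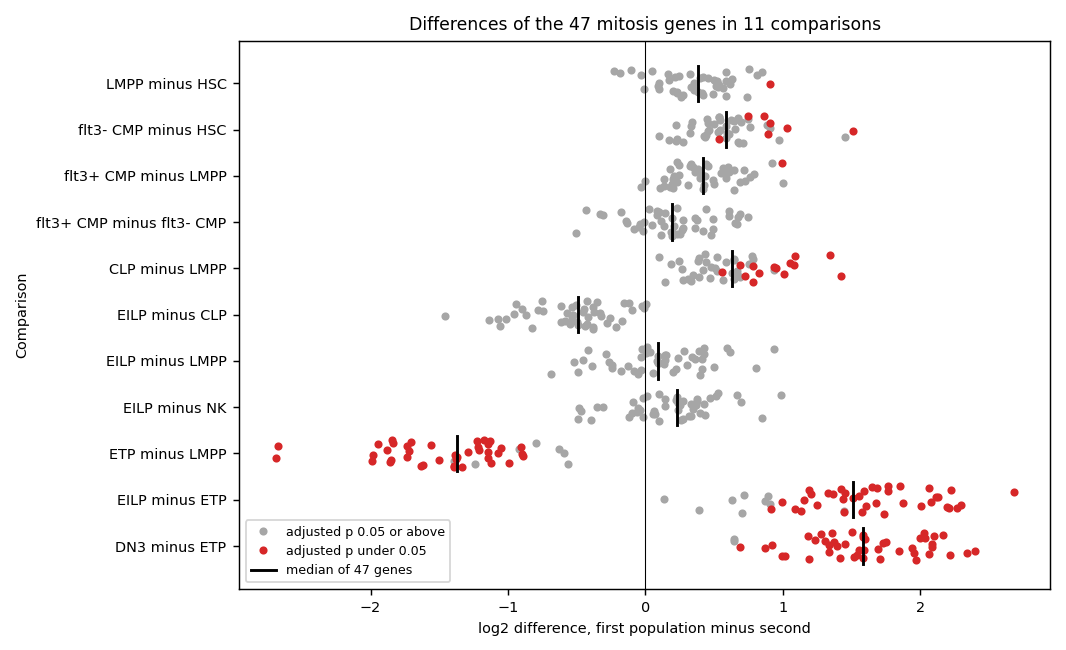
Log2 difference, first population minus second (x axis), of each of the 47 genes in each of the 11 comparisons (y axis). Red points passed an adjusted p under 0.05 in limma, grey points did not, and the black bar is the median of the 47 genes. The 3 comparisons with ETP hold most of the red points, with medians of -1.37, 1.51 and 1.58, and the 3 comparisons of EILP with CLP, LMPP and NK hold none.

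To see how much of the variation came from ETP, the F test was repeated over the 8 other populations, a choice made after the values were seen. Of the 47 genes, 39 differed, where 21.7% of all genes did. The strongest were Kif2c, Aurka and Kif15. The 8 that did not pass were Bub3, Ndc80, Spc24, Spc25, Kif22, Ect2, Top2a and Smc4. Ndc80, with the widest range of population means when ETP was included, was at an adjusted p of 0.052 in limma without it, and Top2a at 0.10. With ETP left out, the lowest population mean was in HSC for 32 of 47 genes, against 11.7% of all genes.

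Across populations, the genes rose and fell with the mean of the panel, which included each gene itself. No other gene set was compared in this way. Over the 9 population means, each gene's Pearson correlation with the mean of the 47 had a median of 0.95, from 0.75 for Cenpi to 0.99 for Tpx2, a description over points that share arrays. Over the 8 means without ETP the median was 0.85, from 0.57 for Birc5 to 0.98 for Kif15. Birc5 differed from the common pattern in HSC, at 8.55 and 8.31, above LMPP at 8.16 and 8.24. Among genes outside the panel, the 10 closest to the mean over the 9 populations were Dlgap5 (r = 0.991), Cip2a (0.989), Aspm (0.983), Tacc3 (0.981), Shcbp1 (0.979), Lrr1 (0.971), Stil (0.969), Ckap2l (0.967), Spag5 (0.967) and Depdc1a (0.964).

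Other cell cycle genes were read from lists of their own. Of 50 other mitosis genes, 46 were measured. In ETP against LMPP 28 of the 46 were lower and 0 higher, with a median of -1.0. Over all genes, 2.40% were lower and 1.02% higher in this comparison. In DN3 against ETP 33 were higher, with a median of 1.07, where 5.20% of all genes were higher. In EILP against ETP 27 were higher, with a median of 1.04, where 4.79% of all genes were higher. Depdc1a read 7.80 and 8.38 in LMPP, 5.68 and 5.52 in ETP and 8.01 and 8.0 in DN3. Its differences were -2.49 ± 0.20 for ETP against LMPP (limma adjusted p = 5.7e-06) and 2.40 ± 0.20 for DN3 against ETP (limma adjusted p = 4.2e-06). Spag5 and the kinesin Kif18a were lower in ETP than in LMPP by differences of -1.87 and -1.84. In EILP against CLP, where 0.325% of all genes were lower, 1 gene of this list passed: Incenp, the scaffold of the passenger complex. It read 8.19 and 8.14 in CLP and 7.03 in EILP, a difference of -1.13 ± 0.20 (limma adjusted p = 0.032).

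The subunits and co-factors of the anaphase-promoting complex and the genes of the cohesin ring had medians near 0 in ETP against LMPP. Of 14 genes of the complex, 0 passed in limma and 4 had an unadjusted p under 0.05, with a median of -0.05. Of 10 cohesin genes, 0 passed in limma and 2 had an unadjusted p under 0.05, with a median of 0.06. Over all genes, 14.4% had an unadjusted p under 0.05 in this comparison. In DN3 against ETP, Ube2s (1.59) and Fzr1 (0.77), which extend ubiquitin chains and activate the complex, were higher among the 14. Rad21, the cohesin subunit cleaved at anaphase, was higher by 0.83 and alone among the 10. Over all genes, 5.20% were higher in DN3 than in ETP.

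Genes of G1 and S entry were called in both directions. In ETP against LMPP, where 2.40% of all genes were lower and 1.02% higher, 2 of 19 were lower, E2f8 (-1.99) and E2f7 (-0.82), both repressors of the E2F family, and 1 was higher, E2f3 (1.09), an activator of that family. In DN3 against ETP, where 5.20% of all genes were higher and 3.53% lower, 8 of 19 were higher and 0 lower, with a median of 0.51, led by E2f8 (2.05), the replication helicase subunit Mcm2 (1.35) and Ccne1 (1.26), cyclin E1. In CLP against LMPP, where 3.75% of all genes were higher, 6 of 19 were higher, led by E2f2 (1.54), Ccnd3 (1.08) and Ccne1 (1.06). A list of cell cycle brakes held inhibitors of cyclin-dependent kinases, genes of the Rb family and E2f4. It also held Lin9, Lin37, Lin52, Lin54 and Rbbp4 of the MuvB complex. That complex also acts with Foxm1 or B-Myb, so the list is not one of brakes alone. Of its 14 genes, 2 were lower in ETP than in LMPP, Rbl1 (-0.87) and Cdkn2c (-0.80). In DN3 against ETP 5 were higher, led by Cdkn2c (1.73), E2f4 (1.66) and Cdkn1a (1.13), and 1 was lower, Rbl2 (-0.67). Cdkn2c, an inhibitor of Cdk4 and Cdk6, read 5.47 and 5.57 in LMPP, 4.81 and 4.65 in ETP, and 6.39 and 6.53 in DN3.

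**Figure D5:**
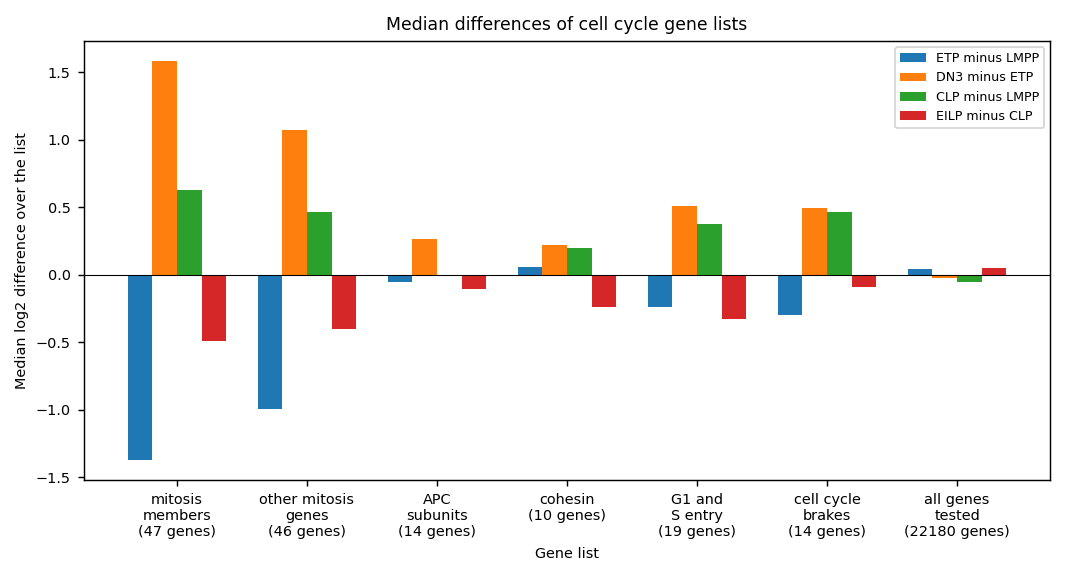
Median log2 difference (y axis) over the genes of each list (x axis, with the number measured) in 4 comparisons, with all 22180 genes tested at the right. The panel described here has the tallest bars, -1.37 in ETP minus LMPP and 1.58 in DN3 minus ETP. The cohesin list and the anaphase-promoting complex list stay between -0.24 and 0.26.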

How the data were processed

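The deposited table held log2 expression values per probe set for 41345 probe sets on 17 arrays. Per the submitters' processing notes the authors used Affymetrix Expression Console. The log2 values were used as deposited, between 1.58 and 13.77. The version and the method of summarising probes were not given in the sources used here. Probe sets were named through the platform annotation: 23521 had 1 symbol, 1814 had several and were not used, and 16010 had none. For genes with more than 1 probe set, the one with the highest mean was taken; each of the 47 genes had only 1.

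limma 3.58.1 in R 4.3.3 was fitted to all 22180 genes and all 17 arrays, with 1 mean per population and no block, and p-values were Benjamini-Hochberg adjusted over all genes (8 residual and 5.33 prior degrees of freedom). The fit was tested on simulated data. Over all genes, same-numbered arrays did not deviate together: correlations of their deviations over 28 pairs of populations ran from -0.07 to 0.09. This does not exclude a shift shared by the mitosis genes alone. Their median was higher in the second array than in the first in every population with 2 arrays except DN3. Array number, here 2 per population and 1 for EILP, limits the precision.

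The mitosis genes and all gene lists were chosen with earlier results of these data known. Values per array are given for up to 5 called genes with the largest difference per direction and comparison, for the 8 genes with the widest and the 4 with the narrowest range of population means, and for Mki67, Top2a, Cdk1, Plk1 and Foxm1. Other genes with values per array, mostly those nearest the threshold, were chosen after their values were seen. Up to 3 called genes per direction are named from each other list. Alternatives were array centring, quantile normalisation, all probe sets, averaging the probe sets of a gene, a filter on dim genes, trended and robust spread, only the 2 groups compared, only 1 side of the Y-linked split, a replicate block, and each array left out. Leaving out both ETP arrays was chosen after seeing the data.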

Additional observations from a re-analysis of the deposited data

How the results depend on the processing

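The check of single genes covered 27 differences, those of the called mitosis genes with the largest difference per direction and comparison. Of 694 values recomputed for them in the alternative runs, 643 stayed on the same side of the threshold, 51 no longer passed and 0 reversed. As these 27 were picked for their size, the absence of reversals says little about smaller differences. Other differences printed with a standard error were not part of this check. Counts of called mitosis genes moved as follows, and the cause was not tested. Some settings use fewer samples or more tests. Quantile normalisation gave 2 in LMPP against HSC, 4 in flt3- CMP against HSC and 6 in CLP against LMPP. Testing all probe sets gave 4 and 7 in the latter 2. With only the 2 populations in the fit, LMPP against HSC and flt3+ CMP against LMPP gave 0 and 0, ETP against LMPP 20 and EILP against ETP 24. Arrays of 1 side of the Y-linked split gave 4 in flt3- CMP against HSC. Centring gave 1 in EILP against CLP, and a replicate block gave 1 in EILP against LMPP (Birc5). No label says whether same-numbered arrays share more than a number. Without both ETP arrays, flt3- CMP against HSC gave 14, EILP against CLP 2 and EILP against LMPP 1. Leaving out 1 array at a time gave 0 to 1 in LMPP against HSC, flt3+ CMP against LMPP, EILP against LMPP and EILP against NK, 0 to 14 in flt3- CMP against HSC, 2 to 18 in CLP against LMPP, and 0 to 2 in EILP against CLP. It gave 27 to 42 in ETP against LMPP, 35 to 41 in EILP against ETP, 39 to 46 in DN3 against ETP, 45 to 47 in the F test, and 0 between the CMP populations. Over all genes, the fit of only 2 populations lowered the count from 759 to 315 in ETP against LMPP, from 1817 to 855 in EILP against ETP, and from 1936 to 1083 in DN3 against ETP.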
